A study of Mus musculus with 2 samples.

Results

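The 10 genes described here encode the subunits of the transcription factor NF-κB and proteins grouped here as its inhibitors. They were taken by gene, as the probes for genes whose RefSeq accession belongs to Rela, Relb, Rel, Nfkb1, Nfkb2, Nfkbia, Nfkbib, Nfkbie, Nfkbiz or Tnfaip3. The rule uses no measured value, but the genes were picked with earlier results of these data known. The arrays held 14 such probes among 39429, and these 10 genes are among 32451 genes or unnamed transcripts. BMDMs, macrophages grown from bone marrow with M-CSF, came, for both groups, from male mice aged 8 weeks whose Crif1 alleles were floxed (Crif1 f/f). One group was left untreated and the other received IL-4, a cytokine that drives macrophages toward the M2-like state, and the titles of both arrays give 18 h. Each group was 1 single-colour Agilent array, so no test between the groups was possible and no difference below has a replicate check. The number of mice behind each array and the IL-4 concentration for the arrays are not given in the sources used here.

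NF-κB is a dimer drawn from the Rel proteins. In resting macrophages the IκB proteins hold most of it in the cytoplasm. Signals from Toll-like receptors, the IL-1 receptor and TNF receptors activate the IκB kinase, IκB is degraded, and dimers that contain RelA enter the nucleus and switch on inflammatory genes. A slower branch, used by CD40 and the lymphotoxin β receptor, runs through the kinase NIK and releases dimers of RelB with the processed product of Nfkb2. Several genes for subunits and inhibitors are themselves known NF-κB targets, which gives the pathway its feedback. In macrophages the pathway is best known for classical, M1-like activation.

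Markers of macrophages and of other cells were read first. Csf1r, Adgre1, Itgam, Mertk and Fcgr1, the 5 macrophage markers with a matched probe, were well above background on both arrays, with a summed intensity of 182945 in untreated cells and 202904 after IL-4. Csf1r, the M-CSF receptor, and Adgre1 had log2 differences of 0.09 and 0.17, and Itgam of -0.71, each at its brightest probe. Over 3 probes each, Itgam ran from -0.71 to -0.24 and Csf1r from -0.11 to 0.09. Fcgr1 and Mertk were 2.34-fold and 2.20-fold lower after IL-4, which ends with spike-in scaling and, for Mertk, with median scaling too. The IL-4 markers Arg1, Chil3 and Mrc1 were 216-fold, 14.2-fold and 5.33-fold higher, and Retnla at least 595-fold. With normexp the log2 differences of Arg1 and Retnla were smaller, 6.79 and 7.51 in place of 7.76 and 9.22. Of the B cell markers reported, Cd79b was above background, at -0.36, while Cd79a and Ms4a1 were not on either array. Of 3 T cell markers Cd3e alone was, at -0.31, while Cd3d and Cd3g were not, and the sum was 376 and 309. The neutrophil markers Elane, Mpo and Cxcr2 had differences of -0.23, 0.30 and -0.04 and summed to 1066 and 1171. The fibroblast markers Col1a1, Col1a2, Dcn and Pdgfra were all well above background, with differences of -0.34, -0.09, -0.14 and 0.51. Their sums, 303191 and 295271, exceeded those of the macrophage markers on both arrays. Most of each fibroblast sum came from Col1a2, at 233342 and 234332, and most of each macrophage sum from Csf1r, at 146026 and 166510. Intensities of different probes are not on a common scale of RNA amount. The sums therefore do not show which cell type gave more RNA. The paper reports, from FACS analysis of macrophage surface markers, that nearly all cells in its BMDM cultures were macrophages. The part of B cells, T cells, neutrophils and fibroblasts in the values below was not tested. In bulk RNA, fewer cells of a type and less RNA per cell cannot be told apart.

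After IL-4, most of the measured NF-κB genes were higher, with Nfkb1 and Relb in front, Rela close to its untreated level, and Nfkbiz lower. Of the 10 genes, 9 were well above background on both arrays and Rel on neither. Of these 9, 8 had a log2 difference above 0 and 1 below 0, where 47.4% of all genes measured on both arrays lay above 0 and 52.6% below. With quantile normalization the count above 0 is 7, because Rela changes sign. The median difference of the 9 genes was 0.55, beside -0.01 for all genes. At least 1.5-fold higher were 4 of the 9 genes, or 44.4%, beside 6.11% of all genes with signal above background on either array, and 1 gene was lower by that much, beside 11.0%. Nfkb1 was the 1 gene past 2-fold on the higher side, beside 2.86% of all genes, or 2.11% of those measured on both arrays. Nfkbiz was the 1 gene past 2-fold on the lower side, beside 4.47% and 1.57%. Here a difference is the log2 of the background-subtracted intensity after IL-4 minus that in untreated cells, each array having been scaled to its 75th percentile. All 14 probes were printed in 1 spot, with 0 marked as outliers and 0 saturated. For the 13 probes above background the software's estimated error was at most 11.4% of the intensity, which gives an error of 0.20 to 0.23 on a log2 difference. The SD of a difference between spots, taken from probes of similar signal printed several times, was smaller, between 0.045 and 0.12. Neither error covers the spread between cultures.

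**Figure D1:**
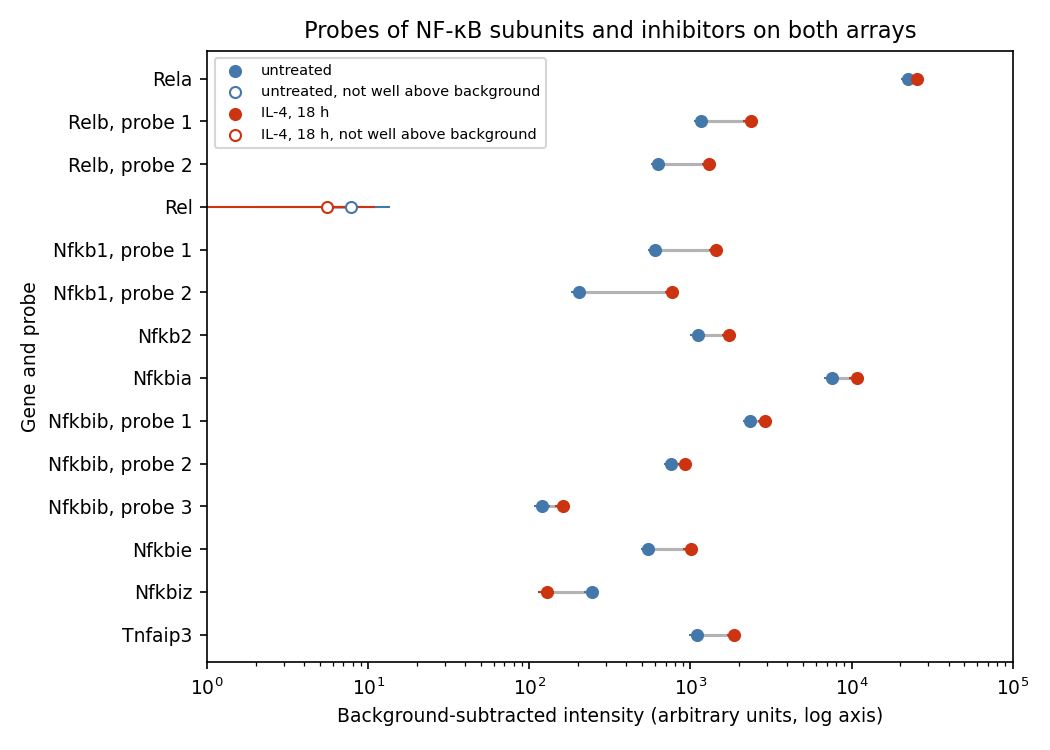
Background-subtracted intensity of each of the 14 probes on the untreated array (blue) and the IL-4 array (red), on a log axis, with bars for the error estimated by the scanner software, and open circles where the spot was not well above background. The red point lies to the right of the blue point for 12 of the 13 filled pairs, to the left for Nfkbiz (245 to 128), and both Rel points lie below 10 with bars that run off the axis.

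Because several of these genes are known NF-κB targets, their promoters were searched for κB sites. RefSeq windows on GRCm38.p6, from 250 bases before to 50 bases after a start site, were at hand for 7 of the 10 genes, in 10 windows. Nfkb1 and Relb, the genes with the highest differences, and Nfkbiz, the lower gene, had no window and were not searched. The κB consensus, a site of 10 bases that opens with GGG and closes with CC, with a purine at the fourth base, A or T at the sixth and pyrimidines at the seventh and eighth, was searched on both strands. It was present in 7 of the 10 windows, from 5 genes, Nfkb2, Nfkbia, Nfkbie, Tnfaip3 and Rel, and in 4.51% of all 32851 windows of that length. A looser frame that takes in the consensus, GGG and CC with any 5 bases between them, was present in 9 windows of these genes and in 50.8% of all windows. The windows of Rela and Nfkbib and the second window of Tnfaip3 held no match to the consensus. A match says only that these letters are there. STAT6 carries the IL-4 signal, and the form it is known to prefer, TTC and GAA with any 4 bases between them, was found for 1 of the 7 genes, Tnfaip3. Of the 10 windows, only the Tnfaip3 window printed below held it, beside 6.95% of all windows. The form with 3 bases between them, which other STAT proteins prefer, was found only in the Nfkb2 window printed below, beside 8.30% of all windows. Windows of the 4 genes with a κB match and a positive difference are printed 5′ to 3′ on the gene's strand, with κB matches in capitals. Nfkb2 has further start sites, and its earliest window is shown, chr19:46304487-46304786 on the plus strand. Nfkbia is at chr12:55492598-55492897 on the minus strand, Nfkbie at chr17:45555450-45555749 on the plus strand and Tnfaip3 at chr10:19015361-19015660 on the minus strand.
Nfkb2: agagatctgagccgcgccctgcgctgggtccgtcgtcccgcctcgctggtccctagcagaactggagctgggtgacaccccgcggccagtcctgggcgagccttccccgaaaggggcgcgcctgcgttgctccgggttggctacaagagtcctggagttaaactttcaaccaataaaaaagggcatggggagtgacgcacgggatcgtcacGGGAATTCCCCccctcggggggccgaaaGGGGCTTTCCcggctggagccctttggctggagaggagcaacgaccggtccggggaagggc
Nfkbia: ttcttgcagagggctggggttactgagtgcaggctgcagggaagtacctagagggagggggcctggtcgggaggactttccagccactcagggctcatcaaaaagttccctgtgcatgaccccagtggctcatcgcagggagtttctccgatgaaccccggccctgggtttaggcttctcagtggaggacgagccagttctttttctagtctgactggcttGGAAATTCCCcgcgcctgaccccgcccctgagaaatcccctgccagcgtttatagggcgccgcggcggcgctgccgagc
Nfkbie: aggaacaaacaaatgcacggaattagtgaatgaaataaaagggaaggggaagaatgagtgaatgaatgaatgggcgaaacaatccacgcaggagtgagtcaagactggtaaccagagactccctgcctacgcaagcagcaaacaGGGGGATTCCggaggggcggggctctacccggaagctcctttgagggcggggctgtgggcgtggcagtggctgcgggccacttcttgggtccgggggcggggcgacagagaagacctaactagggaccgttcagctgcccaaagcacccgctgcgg
Tnfaip3: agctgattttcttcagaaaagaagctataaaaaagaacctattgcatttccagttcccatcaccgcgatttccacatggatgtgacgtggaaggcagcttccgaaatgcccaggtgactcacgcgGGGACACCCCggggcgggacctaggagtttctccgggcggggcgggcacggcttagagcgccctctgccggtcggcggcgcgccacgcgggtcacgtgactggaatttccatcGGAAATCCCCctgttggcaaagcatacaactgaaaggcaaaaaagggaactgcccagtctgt

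Matches are placed by their first base, counted from the start site. Nfkb2 holds 3, at -39, -38 and -11, of which the first and second overlap. Its 2 later windows overlap each other and share 1 match. Nfkbia holds 1 match, at -29, and Nfkbie 1, at -106. The Tnfaip3 window printed holds 2, at -125 and -12. The Rel window, not printed because Rel gave no fold, holds 2 overlapping matches, at -92 and -91.

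Among the subunits, Nfkb1, which encodes the precursor of a DNA-binding subunit that also acts as an IκB before it is processed, had the largest difference. Its brighter probe had an intensity of 604 in untreated cells and 1447 after IL-4, a log2 difference of 1.16 ± 0.21 (error from the software), or 2.24-fold. Its dimmer probe went from 203 to 774, a difference of 1.83 ± 0.21, or 3.55-fold. Both Nfkb1 probes were thus higher after IL-4, by amounts that differ by more than the sum of their errors. Of 17242 genes measured on both arrays, 1.55% had a larger difference than the brighter probe. Among 2593 probes of similar signal, within 0.5 log2 units and above background on at least 1 array, 1.16% had a larger one. With normexp, a background correction that compresses dim signal, the brighter probe was just short of 2-fold, at 0.97, while the dimmer one was past it in all 11 alternatives, between 1.45 and 2.14.

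Relb encodes the subunit of the slower, NIK-dependent branch, and its RNA is itself a known NF-κB target. Its brighter probe had an intensity of 1166 in untreated cells and 2362 after IL-4, a difference of 0.92 ± 0.20, or 1.89-fold. The dimmer probe went from 630.1 to 1305, a difference of 0.95 ± 0.20, or 1.93-fold. The 2 probes of Relb thus differ from each other by less than their error, and the differences are 4.50 and 4.64 times their own errors. The software sets that error near 10% of the intensity for each probe, and it holds no spread between arrays or cultures. Of 2559 probes of signal like the brighter one, 2.11% had a larger difference. Relb passed 2-fold with median scaling (1.13), no scaling (1.02) and spike-in scaling (1.23) and not otherwise.

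Nfkb2, the precursor of the partner of RelB, was higher by less. Its intensity was 1111 in untreated cells and 1742 after IL-4, a difference of 0.55 ± 0.20, or 1.46-fold, just under the 1.5-fold mark. Among all genes, 5.10% had a larger difference. Rela, the main activating subunit of the fast branch, had an intensity of 22410.5 in untreated cells and 25406 after IL-4. Its difference of 0.08 ± 0.20, or 1.06-fold, lay within its error and turned to -0.03 with quantile normalization. Probes of similarly high signal had a median difference of 0.07, so Rela sat in the middle of its neighbours, 45.7% of which had a larger difference. Rel, the subunit best known from lymphocytes and dendritic cells, was not well above background at its 1 probe. Its intensity was 7.83 with an error of 5.83 in untreated cells and 5.53 with an error of 5.52 after IL-4, where the lowest signals well above background were 29.2 and 27.9, so no fold is given. A probe below background does not show that the gene is silent.

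Of the 5 genes grouped as inhibitors, 4 had differences above 0. The exception was Nfkbiz, which is in this group by family, though its product works mainly as a co-activator. Nfkbie, which encodes IκBε, an inhibitor of Rel and RelA dimers, led the 4. Its intensity was 549 in untreated cells and 1006 after IL-4, a difference of 0.78 ± 0.21, or 1.71-fold. Tnfaip3 encodes A20, a ubiquitin-editing enzyme that shuts off signalling above the IκB kinase. Its intensity went from 1095 to 1876, a difference of 0.68 ± 0.20, or 1.60-fold. Nfkbia encodes IκBα, the inhibitor that is degraded and remade fastest. Its intensity was 7539.9 in untreated cells and 10762 after IL-4, a difference of 0.41 ± 0.20, or 1.33-fold. The differences of these 3 inhibitors were larger than the software's error, and 3.17%, 3.83% and 7.60% of all genes had larger differences. Nfkbib, which encodes IκBβ, a more stable inhibitor, had 3 probes. Its brightest went from 2338 to 2921, a difference of 0.22 ± 0.20, or 1.17-fold. The other two had differences of 0.19 ± 0.20 and 0.33 ± 0.23. Nfkbib was thus higher at each probe, by an amount near its error. For these 4 genes the sign stayed the same in all 11 alternatives, though some of these could hardly move them.

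Nfkbiz encodes IκBζ, an atypical nuclear member of the family that works mainly as a co-activator of secondary inflammatory genes such as Il6, and it was the 1 measured gene of the 9 that was lower. Its intensity was 245 in untreated cells and 128 after IL-4, a difference of -1.04 ± 0.22, or 2.05-fold lower. Of all genes measured on both arrays, 1.40% had a lower difference. The 2434 probes of similar signal had a median difference of -0.09 and 1.89% of them were 2-fold lower or more. Before background subtraction the median pixel intensity of the spot was 303.5 and 180.0, against 57 for the negative control spots of either array. Nfkbiz stayed lower in all 11 alternatives, between -1.09 and -0.73, and was short of 2-fold in 6 of them. Of the 5 that kept it past 2-fold, only the 75th percentile over both-array probes moved it by much, to -1.09. The others read the same signal of its 1 unflagged probe with nearly the same scaling. The order of the 9 differences, from the highest, was Nfkb1, Relb, Nfkbie, Tnfaip3, Nfkb2, Nfkbia, Nfkbib, Rela and Nfkbiz. Up to Rela, each neighbour in this order differs from the next by less than their combined error, whereas the step from Rela to Nfkbiz exceeds it.

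**Figure D2:**
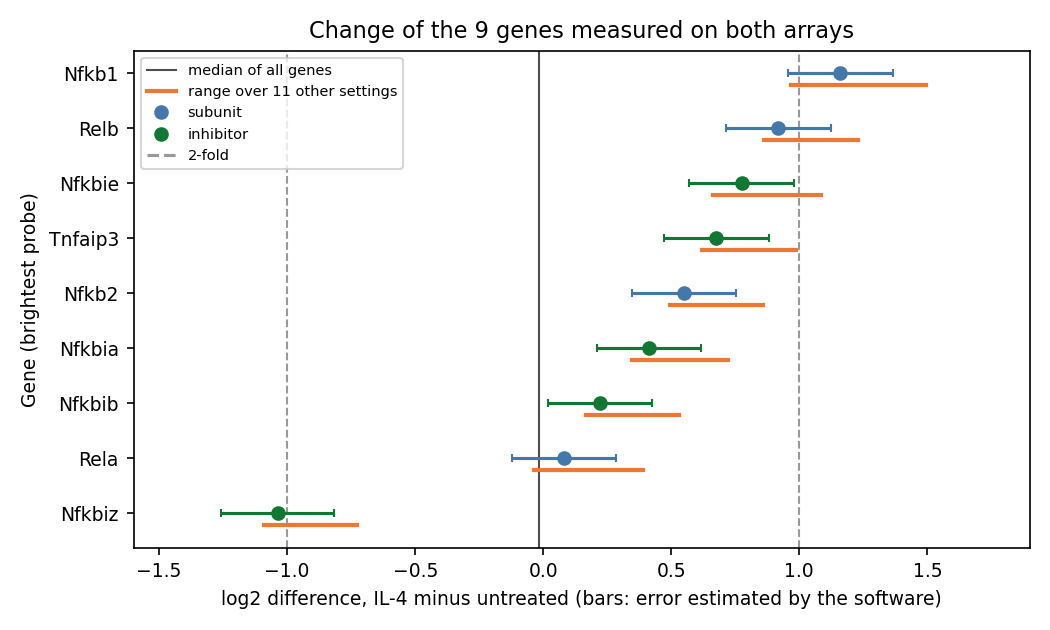
The log2 difference, IL-4 minus untreated, for the brightest probe of each of the 9 genes measured on both arrays, subunits in blue and inhibitors in green, with bars for the error estimated by the software, orange lines for the range over 11 other settings, a grey line for the median of all genes and dashed lines at 2-fold. Nfkb1 lies highest at 1.16, Rela (0.08) has a bar that crosses 0, and Nfkbiz lies alone on the lower side at -1.04.

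**Figure D3:**
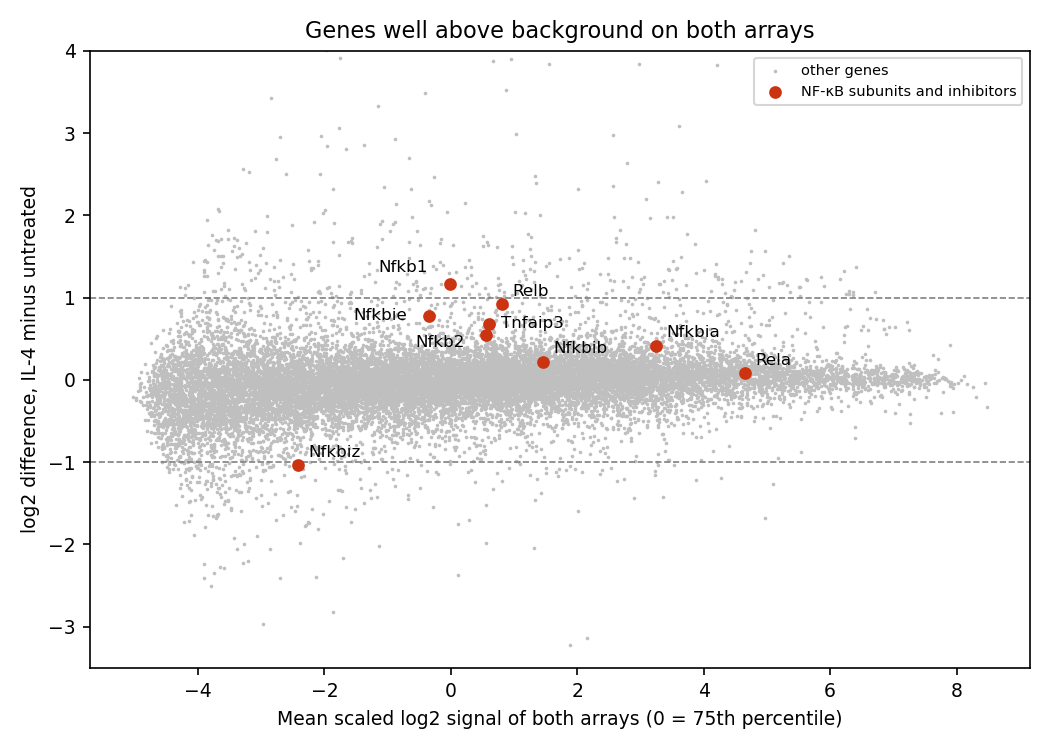
The log2 difference of 17242 genes well above background on both arrays against their mean scaled log2 signal, with the 9 NF-κB genes in red and dashed lines at 2-fold; 10 genes above a difference of 4 are outside the plot. Nfkb1, Relb, Nfkbie, Tnfaip3 and Nfkb2 lie at or above the upper edge of the dense cloud in the middle of the signal range, and Nfkbiz at its lower edge among dimmer genes.

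None of the kinases and adaptors that relay the signal was past 2-fold. Among all genes measured on both arrays, 2.11% were past it on the higher side and 1.57% on the lower, so that a count of 0 is near the share of all genes. Of the adaptors, Traf5 passes 2-fold in 3 and Malt1 in 2 of the 11 alternatives. The 11 kinases, among them the IκB kinase subunits Chuk, Ikbkb and Ikbkg, were all measured on both arrays, and 0 were 1.5-fold higher or lower. Of all genes above background on at least 1 array, 6.11% were higher and 11.0% lower by that much. A count of 0 among 11 genes is not far from these shares. Their differences ran from -0.27 for Map3k14, which encodes NIK, to 0.32 for Map3k8, which encodes the kinase TPL2. Their median was 0.01. Of 21 adaptors and ubiquitin ligases, 0 were 2-fold higher or lower, and 2, or 9.52%, were at least 1.5-fold higher, beside 6.11% of all genes. These were Traf5, an adaptor of TNF receptor family members, at 0.94 ± 0.20, and Malt1, a protease of the complex with Bcl10, at 0.82 ± 0.20. By the brightest probe, 0 adaptors were 1.5-fold lower, and the lowest was Birc2, a ubiquitin ligase that keeps NIK low, at -0.13. Irak2 was also at -0.13 by its brightest probe, but its dimmer probe was at -0.69. The median of the adaptors was 0.03.

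Of 10 receptors, all measured on both arrays, 3 were at least 2-fold higher, or 30.0%, and 0 were lower by that much. Of all genes measured on both arrays, 2.11% were higher and 1.57% lower by that much. Cd40, which signals through both branches, went from an intensity of 227 to 1578, a difference of 2.70 ± 0.21, or 6.50-fold. Il1r1, the signalling receptor for IL-1, went from 528 to 1764, a difference of 1.64 ± 0.21, or 3.12-fold. Il1rap, its co-receptor, went from 43.8 to 133.5, a difference of 1.51 ± 0.32, or 2.84-fold, which shrank to 0.57 with normexp. The untreated signal of Il1rap was near the lowest well above background, 29.2, and its dimmer probe gave no fold. The Toll-like receptor Tlr4 was at 0.52 and Tlr2, the lowest receptor, at -0.45. Of 10 ligands, 7 were above background on at least 1 array and 5 on both. Tnfsf14, above background in untreated cells only, was at least 2.18-fold lower, a call that ends in 5 of the 10 alternatives that give it a value. Tnf was the 1 ligand measured on both arrays with a positive difference, at 0.28 ± 0.21, and Il18 was the lowest of those 5, at -0.89 ± 0.21. At least 1.5-fold lower were 3 of the 7 ligands, or 42.9%, beside 11.0% of all genes, and 0 were higher by that much. These were Il18 and, as bounds from dim signal, Tnfsf14 and Lta, the latter at least 1.92-fold lower.

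The other 20 inhibitors were all measured on both arrays, with a median of 0.11, and 2 were at least 2-fold higher, beside 2.11% of all genes measured on both arrays. Tnip3, a partner of A20, went from 221 to 907, a difference of 1.94 ± 0.21, or 3.83-fold, and its dimmer probe had a difference of 1.51. Zc3h12a encodes an RNase that cuts inflammatory mRNAs such as Il6, and it went from 92.8 to 203, a difference of 1.03 ± 0.24, or 2.04-fold, which shrank to 0.53 with normexp and was also short of 2-fold when the 75th percentile was taken without the probes that were dim on either array. Otud7b, a deubiquitinase of the NIK branch, was the lowest at -0.93 ± 0.22, followed by Irak3, a brake on Toll-like receptor signalling, at -0.65 ± 0.21. Nfkbid and Bcl3, the other atypical IκB genes beside Nfkbiz, were at 0.00 and 0.20. Their differences were thus at or below their error of 0.20, unlike that of Nfkbiz.

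Of 26 known NF-κB target genes measured on both arrays, 19 had differences above 0 and 7 below, beside 47.4% and 52.6% of all genes. The list holds 28 genes, of which 27 had a matched probe, each above background on at least 1 array. At least 2-fold higher were 5, or 18.5%, beside 2.86% of all genes, and 0 were 2-fold lower, beside 4.47%. Ccl2, a chemokine for monocytes, went from 3825 to 34803, a difference of 3.09 ± 0.20, or 8.49-fold. Ccl4 was 2.75-fold higher, Cd83, a surface marker of activation, 2.55-fold, the adhesion molecule Icam1 2.16-fold and Il6 2.14-fold. Icam1 and Il6 shrank to 0.56 and 0.45 with normexp, and their untreated intensities were 161 and 65.6. Other inflammatory targets lay on either side. Il1b, Ptgs2 and Nos2 were at -0.29 ± 0.21, -0.11 ± 0.20 and -0.06 ± 0.31, and Lcn2 was the lowest target at -0.71 ± 0.20. Saa3, Cxcl1, Cxcl10, Ccl5, Ccl3 and Tnf were at 0.91, 0.83, 0.67, 0.42, 0.28 and 0.28. Cxcl1 was dim in untreated cells, at 35.3, and shrank to 0.05 with normexp. At least 1.5-fold higher were 11 of the 27, or 40.7%, beside the 6.11% of all genes given above, and 1 was lower by that much. The median over the 26 targets measured on both arrays was 0.37. Of the 96 genes of these lists, 92 were above background on at least 1 array, and of these 10, or 10.9%, were past 2-fold on the higher side and 1, or 1.09%, on the lower, beside the same 2.86% and 4.47%.

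**Figure D4:**
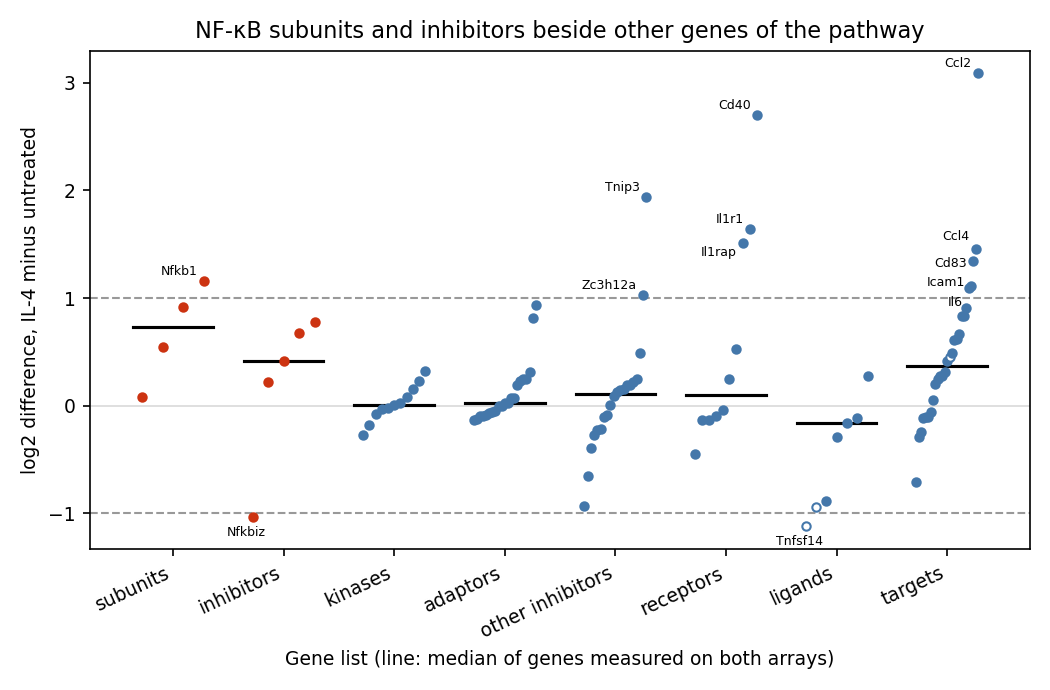
The log2 difference, IL-4 minus untreated, of each gene with a value, by list, with the NF-κB subunits and inhibitors in red, other genes of the pathway in blue, open circles for bounds, black lines for the median of genes measured on both arrays and dashed lines at 2-fold. The medians of the subunits (0.73), inhibitors (0.41, with Nfkbiz counted) and targets (0.37) lie above those of the kinases (0.01) and adaptors (0.03). Genes past 2-fold are named.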

How the data were processed

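RNA of untreated and IL-4-treated BMDMs was hybridised to 1 array each, read at the same scan time, and the groups were taken from the labels. The authors deposited the intensity of each spot and its flags from Feature Extraction 10.10.1.1, background-subtracted and detrended within the array, not scaled between arrays. A second deposited table holds their processed log2 values and served as an alternative. Its scale and direction follow the scanner values (differences within 0.01 for 39422 of 39424 probes), column medians are 0.16 and 0.02, and its centring stays unknown. Coordinates are not taken from the array design, which was annotated on mm9. RefSeq accessions named 27234 of 39429 probes.

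Outlier and control spots were left out, log2 intensities were averaged per probe, and the 75th percentile was subtracted. A gene was read from its brightest probe. A probe not well above background on 1 array gives a bound, taken against whichever is higher, its own signal there or the lowest signal above background there. On both arrays it gives no fold. No p-value is given with 1 array per group. Members, lists and settings were chosen with earlier results of these data known. All members and probes are named, and of the pathway lists each gene past 2-fold and the extremes in each direction, with further genes named for their role after their values were seen. Il12b, Cd68, Trac and Ly6g had no matched probe and were not used here. One B cell marker is not reported here. The counting step was checked on simulated data with known folds, all planted well past the cutoff and with noise below the software's error. Only probes above background on both arrays were changed there, so that check does not cover folds near the cutoff or bounds. Alternatives were 6 scalings, normexp (offset of 50) on the median pixel intensity, flagged spots kept, the authors' table, the median over probes, both-array genes only and a 1.5-fold cutoff. Python 3.11.15, numpy 2.4.6, pandas 2.3.3, matplotlib 3.10.9, R 4.3.3 and limma 3.58.1 were used.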

Additional observations from a re-analysis of the deposited data

How the results depend on the processing

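No paired analysis was possible because each group has 1 array. The main setting counted 1 NF-κB gene at least 2-fold higher, and this was 2 with median scaling and with no scaling, 3 with spike-in scaling, 0 with normexp and 4 at a cutoff of 1.5-fold. The 1 gene at least 2-fold lower, Nfkbiz, became 0 with normexp, spike-in scaling, cyclic loess, median scaling, quantile normalization and no scaling. The median difference of the 9 genes, 0.55, was 0.76 with median scaling, 0.65 with no scaling and 0.86 with spike-in scaling. Over all genes the median shifted by 0.21 with median scaling and by 0.31 with spike-in scaling. Relative to that median the 9 genes lay between 0.54 and 0.59 in all settings. A scaling that moves a whole array by a constant cannot change this value, so most settings left it at 0.56 by construction. It was 0.54 with quantile normalization and with cyclic loess, 0.57 with the median over probes and 0.59 with normexp. The 10 pathway genes at least 2-fold higher were 6 with normexp and 18 at 1.5-fold. The 1 at least 2-fold lower was 0 with median scaling, quantile normalization, cyclic loess, spike-in scaling, normexp and genes measured on both arrays only, 2 in the authors' processed values and 6 at 1.5-fold. The lower cutoff and the filter change counts by construction, and for the other settings the cause was not tested. Higher genes made up 39.0% of all genes past 2-fold in the main setting, between 34.0% and 67.8% over the others. Of the 9 genes, 8 kept their sign in all 11 settings, the exception being Rela. Flagged spots kept, both-array genes only and, for genes with 1 probe, the median over probes could hardly move these values. The authors' values follow the scanner values closely, so they add little too. What limits these values is the single array per group, 1 spot per probe, and dim signal for Rel and Nfkbiz.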
